A study of Saccharomyces cerevisiae with 8 samples.

Results

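RNA levels after a 15 min block of translation were compared with RNA levels after lasting loss of the decay factor Upf1 in the budding yeast Saccharomyces cerevisiae. The comparison took 4 of the 8 libraries of the series, chosen by their labels: the 2 of wild-type cells treated with cycloheximide (WT with CHX) and the 2 of upf1 mutant cells treated with solvent alone (upf1 with DMSO). The other 4 libraries, 2 of wild type with DMSO and 2 of upf1 with CHX, served as the starting level, as a check and for the estimate of spread. All cells were of the BY4741 background (MATa, his3Δ1 leu2Δ0 met15Δ0 ura3Δ0), so both strains shared these 4 auxotrophic alleles, and the mutant also carried the upf1::kanMX4 deletion. Cultures grew at 30 °C in YPD, which is rich and holds glucose, until their optical density was 0.5. CHX was given at 100 µg/ml for 15 min, and the DMSO groups received solvent for the same time. Total RNA depleted of ribosomal RNA was sequenced in a strand-specific way. The compared groups differed in genotype and in drug at once, so the contribution of each to a difference cannot be told apart within these 4 libraries alone.

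Cycloheximide binds the ribosome and stops elongation, which also stops the decay of mRNAs that depends on translation. Upf1 is the helicase on which nonsense-mediated decay (NMD) depends, a pathway that destroys RNAs on which translation ends too early. Loss of Upf1 removes that pathway for the life of the culture, whereas CHX acts within minutes on all translation and lets newly made RNA pile up. Many non-coding RNAs of yeast reach the cytoplasm and can be read by ribosomes. They are sorted by the factor that removes or ends them, into XUTs (removed in the cytoplasm by the exonuclease Xrn1), CUTs (cryptic RNAs that the nuclear exosome removes), NUTs (RNAs that appear once the termination factor Nrd1 is taken away) and SUTs (unannotated but stable).

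The deposited values are normalised read densities, a level per nucleotide of each feature on the authors' scale. On that scale the median snoRNA (the small nucleolar RNAs that guide modification of ribosomal RNA) differed by 0.00 on the log2 scale between the compared groups, while the median of 6457 Y-named genes, the reading frames with systematic names, was 0.83 higher after CHX. Each comparison is therefore given on the deposited scale and after rescaling every library on the Y-named genes, which took that shift out and left a median of 0.01. On the rescaled scale a difference is relative to the median mRNA. Against WT with DMSO, the median Y-named gene stood 1.56 higher with CHX and 0.57 higher in upf1 as deposited, and at 0.09 and -0.10 after rescaling. Where a gene lies against WT with DMSO therefore depends on the scale, and single-library densities are rescaled unless called deposited. Log2 differences are WT with CHX minus upf1 with DMSO throughout, so a positive value is higher after the translation block and a negative value is higher without Upf1. A feature is called higher in a group where limma's p, adjusted over all 11700 features tested, was under 0.05.

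The libraries held from 9091653 to 25648467 recovered reads. Per library, 7 to 54 of them fell on the median XUT and 276 to 1352 on the median Y-named gene, so single non-coding RNAs were measured with less precision than mRNAs. Replicates differed by more than counting noise, and the chi-square of their reads per feature was 17.2 in the compared upf1 group and 4.39 in the compared wild-type group. NAM7, the gene of Upf1 (YMR080C, R64, chromosome XIII, 426712 to 429627), had 3300 and 4143 reads in the compared WT libraries and 134 and 96 in the compared upf1 libraries, so both compared groups matched their genotype labels. STE2, the receptor of a cells, had 6380 to 27726 reads per library against 22 to 518 for STE3, the receptor of alpha cells, and LEU2 and URA3, whose labelled alleles are deletions, had at most 2 reads. HIS3, of which the his3Δ1 allele lacks a part only, had 296 to 1570 reads. In these bulk cultures fewer cells with an RNA and less of that RNA per cell cannot be told apart.

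The stop codons of 5 pairs of neighbouring reading frames are shown first. They were picked from 16 such pairs because both frames were higher in upf1 after rescaling. In each pair the upstream frame ends at a stop codon and the downstream frame continues in the same frame with no other stop between them. The 27 bases around the upstream stop codon, which stands in capitals, were read 5′ to 3′ on the coding strand from the R64 reference sequence.
YOL163W (chrXV:10092-10118, plus strand): gattactatataTAGcctatctacttg
BSC5 (chrXIV:761111-761137, minus strand): aaaaagaaacacTAGtctgaagaagat
NFT1 (chrXI:656722-656748, plus strand): atgaaggcctcaTAGttggatgcgggg
NIT1 (chrIX:34075-34101, minus strand): gctaggcctattTAGaggactgtgatg
YNR066C (chrXIV:753713-753739, minus strand): ttttatagtatcTAAatctcaaatcct

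On the rescaled scale, mRNAs divided about equally between the compared groups. The rescaling itself sets the median Y-named gene near 0, so this near-even split is not a finding about the groups. Of the 6457 Y-named genes tested, 1820 (28.2%) were higher after CHX and 1808 (28.0%) were higher in upf1. Without WT_CHX replicate 1 these counts were 1316 and 1363. Differences of at least 2-fold were more often toward CHX, in 427 genes (6.61%) against 234 (3.62%). On the deposited scale 5043 Y-named genes (78.1%) were higher after CHX and 102 (1.58%) were higher in upf1, and past 2-fold these counts were 2471 (38.3%) and 22 (0.341%). All 102 genes that were higher in upf1 on the deposited scale were also higher in upf1 after rescaling, and all 1820 higher after CHX on the rescaled scale were also higher after CHX as deposited. Over all feature kinds, 8412 (71.9%) were higher after CHX and 251 (2.15%) in upf1 as deposited, and 3071 (26.2%) and 2823 (24.1%) after rescaling. Differences of at least 2-fold came to 40.2% and 0.479% of all features as deposited and 9.23% and 4.87% after rescaling. In all, 729 features were higher after CHX as deposited and higher in upf1 after rescaling, so for them the direction depends on the scale.

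The direction went with the starting level of the mRNA. Y-named genes were split into 5 equal groups by their density in WT with DMSO. In the lowest group the median rescaled log2 difference was 0.30, and 18.9% were at least 2-fold higher after CHX against 7.04% in upf1. In the highest group the median was -0.22, and 1.86% and 2.17% passed 2-fold. Called at any size were 28.5% after CHX and 17.5% in upf1 in the lowest group, and 12.4% and 48.1% in the highest. The 3 groups between them had medians of 0.11, 0.11 and 0.00. In 5 groups by feature length the shortest had a median of 0.23 and the longest -0.07. Short and low features have fewer reads, and the part of counting noise in these medians was not tested.

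The 12 Y-named genes farthest toward the translation block, among those at or above the median level of 0.439, included metabolic enzymes, repressors, phosphate genes and short proteins. The first was CIT2, the peroxisomal citrate synthase induced by retrograde signalling from mitochondria (YCR005C, chromosome III, 120946 to 122328). Its rescaled density was 18.8 and 21.0 after CHX and 0.846 and 0.721 in upf1, against 0.591 and 0.850 in WT with DMSO. Both CHX libraries thus stood far above all 4 DMSO libraries. The log2 difference was 4.66 (SE 0.16, limma adjusted p = 8.67e-06) on the rescaled scale and 5.51 on the deposited scale.

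NRG1, a repressor of glucose-repressed genes (YDR043C, chromosome IV, 542674 to 543369), was next with 2.96 and 2.56 after CHX and 0.136 and 0.107 in upf1, a rescaled log2 difference of 4.45 (SE 0.12, limma adjusted p = 3.18e-06). Its paralog NRG2 had 1.90 and 1.60 after CHX and 0.299 and 0.227 in upf1, a difference of 2.71 (SE 0.14). For both repressors the CHX libraries were the higher ones without overlap. PHO89, a sodium-coupled phosphate transporter of the plasma membrane, differed by 4.05 (SE 0.17), and here both groups had moved away from the start. Its density was 0.590 and 0.621 in WT with DMSO, 1.84 and 1.90 after CHX, and 0.0891 and 0.130 in upf1.

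SPO24, a short protein of sporulation, had 25.8 and 23.0 after CHX against 2.59 and 2.57 in upf1, a log2 difference of 3.23. The short reading frames DPI8 and YER053C-A both differed by 3.19, and ICY1 by 3.15. SPL2, which lowers low-affinity phosphate uptake, had 4.81 and 4.42 after CHX and 0.514 and 0.653 in upf1, a difference of 2.98. Like PHO89, it was lower in upf1 than in the DMSO-treated wild type, where it stood at 1.43 and 1.71.

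The other 3 of the 12 were ARO10, the phenylpyruvate decarboxylase of fusel alcohol synthesis, at 2.60, GAT2, a GATA-type transcription factor, at 2.55, and PRM5, a membrane protein induced by pheromone and cell wall stress, at 2.46. In all 12 the limma adjusted p was at most 0.000169 and the call also held on the deposited scale. On the rescaled scale both upf1 libraries in 7 of the 12 lay below both WT libraries with DMSO.

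**Figure D1:**
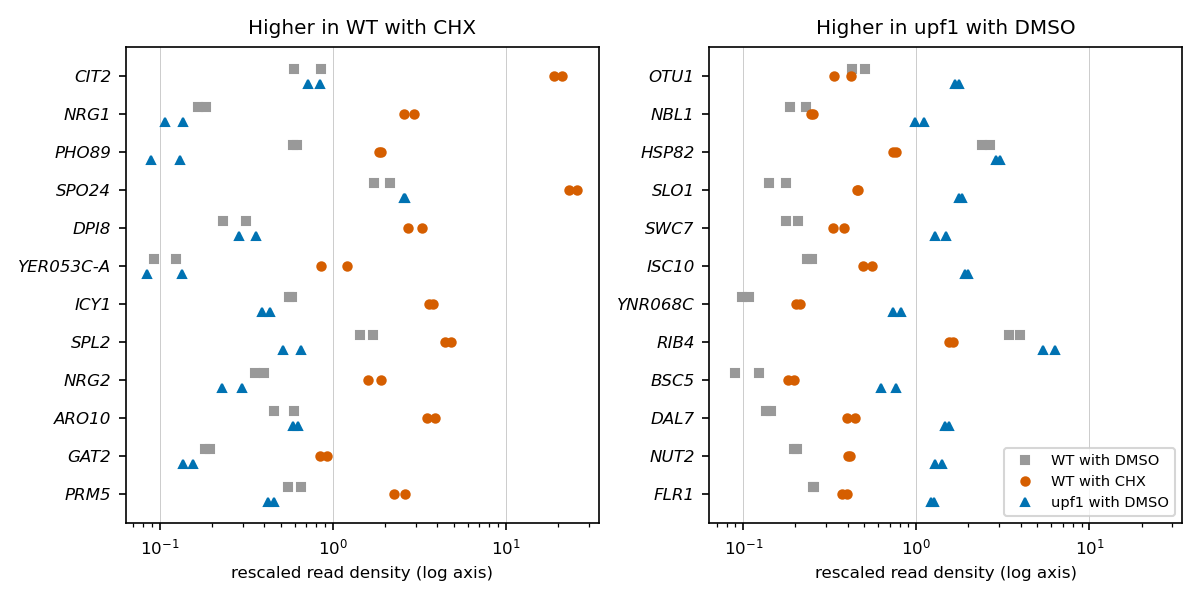
Rescaled read densities (horizontal log axis) of the 12 Y-named genes farthest toward CHX (left) and the 12 farthest toward upf1 (right), with 1 point per library for WT with DMSO (squares), WT with CHX (circles) and upf1 with DMSO (triangles). CIT2 stands at 18.8 and 21.0 in WT with CHX and at 0.846 and 0.721 in the upf1 libraries, and OTU1 at 0.334 and 0.420 and at 1.76 and 1.68.

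Among genes at or above the same median level, the 12 farthest toward upf1 began with OTU1, a deubiquitinase that works with Cdc48 (YFL044C, chromosome VI, 44655 to 45560), had rescaled densities of 1.76 and 1.68 in upf1 and 0.334 and 0.420 after CHX, against 0.427 and 0.506 in WT with DMSO. The upf1 libraries were the only high ones of these 3 groups. The log2 difference was -2.19 (SE 0.12, limma adjusted p = 2.7e-05) after rescaling and -1.34 as deposited. NBL1, a subunit of the chromosomal passenger complex, had 0.976 and 1.10 in upf1 and 0.248 and 0.253 after CHX, a rescaled difference of -2.02 (SE 0.13).

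ISC10, a gene of spore formation, and SLO1, a small protein of vesicle targeting, lie next to each other on chromosome V (549724 to 550527 and 550865 to 551122) on the same strand. SLO1 had 1.83 and 1.77 in upf1, 0.461 and 0.452 after CHX, and 0.14 and 0.177 in WT with DMSO, a difference of -1.97 (SE 0.10) between the compared groups. ISC10 had 1.98 and 1.90 in upf1 and 0.488 and 0.554 after CHX, a difference of -1.89 (SE 0.08). For both genes CHX alone stood above the untreated wild type and loss of Upf1 stood higher still. DAL7, a malate synthase and a reported NMD target, showed the same order, with 0.144 and 0.136 in WT with DMSO, 0.399 and 0.445 after CHX, and 1.54 and 1.46 in upf1, a difference of -1.82 (SE 0.09).

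SWC7, a subunit of the SWR1 chromatin remodeller, differed by -1.95, NUT2, a subunit of the Mediator complex, by -1.70, and FLR1, a multidrug transporter, by -1.68. HSP82 and RIB4 were lower after CHX than in WT with DMSO on the rescaled scale, but as deposited their CHX changes of -0.20 and 0.35 did not pass the threshold and both were higher in upf1 than in that wild type, by 0.93 and 1.37. HSP82, the heat-inducible Hsp90 chaperone, had 3.04 and 2.89 in upf1 and 2.67 and 2.40 in WT with DMSO, but 0.759 and 0.735 after CHX, a difference of -1.98 (SE 0.10) between the compared groups. RIB4, lumazine synthase of riboflavin biosynthesis, had 5.37 and 6.34 in upf1, 3.41 and 3.97 in WT with DMSO, and 1.55 and 1.63 after CHX, a difference of -1.87. In 9 of the 12 genes both CHX libraries stood above both DMSO-treated wild-type libraries after rescaling. All 12 were also called higher in upf1 on the deposited scale, with a limma adjusted p of at most 0.000169 after rescaling. HSP82 reads may be shared with its near-identical copy HSC82.

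Setting the separate effects side by side shows both kinds of gene. Relative to WT with DMSO, the rescaled log2 change of CIT2 was 4.80 with CHX and 0.14 in upf1, that of ARO10 2.81 and 0.21, and that of PHO89 1.62 and -2.43. For OTU1 the same changes were -0.31 and 1.88 (1.23 and 2.57 as deposited), for NBL1 0.27 and 2.29, and for DAL7 1.56 and 3.37. These effects share the WT libraries with DMSO, so no relation between them is given.

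**Figure D2:**
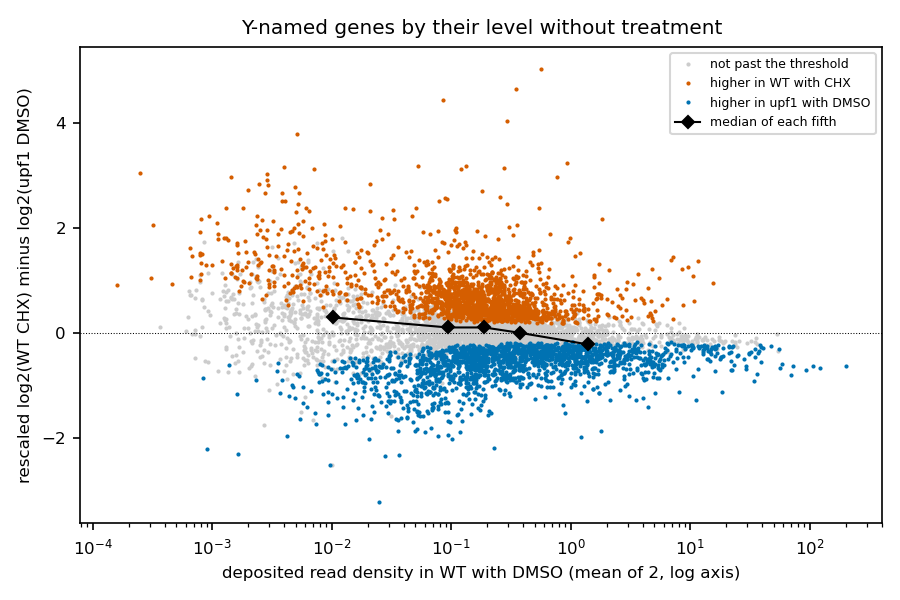
Rescaled log2 difference between the compared groups (vertical) against the deposited read density in WT with DMSO (horizontal log axis), 1 point per tested Y-named gene above 0 there, coloured by its call. Black diamonds are the medians of 5 equal groups by that density, which run from 0.30 in the lowest to -0.22 in the highest.

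The in-frame pairs held RNAs that were high without Upf1 on both of their frames. BSC5, named for a stop codon that ribosomes bypass, had 0.763 and 0.622 in upf1 and 0.181 and 0.197 after CHX, a rescaled log2 difference of -1.84 (SE 0.17). YNR068C, the downstream frame, had 0.819 and 0.735 in upf1 and 0.212 and 0.202 after CHX, a difference of -1.88 (SE 0.11). The upf1 libraries were the higher ones in both frames. The gap between these frames is 237 nt.

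YOL163W and YOL162W, 12 nt apart, differed by -2.53 (SE 0.14) and -1.97 (SE 0.21). Their reads were few, with 13 and 13 reads of YOL163W after CHX against 122 and 91 in upf1. NFT1 and YKR104W, 99 nt apart, which together spell a transporter of the ABC family, differed by -1.49 (SE 0.11) and -1.56 (SE 0.13). NIT1, a nitrilase, and YIL165C, 9 nt apart, differed by -1.32 (SE 0.08) and -1.36 (SE 0.13). In these 4 pairs both frames were higher in upf1 on both scales. The deposited calls of NIT1, YIL165C, NFT1 and YKR104W were lost without WT_CHX replicate 1, with limma adjusted p between 0.0919 and 0.0997, and those of NIT1 and YIL165C also without upf1_DMSO replicate 2.

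YNR066C and YNR065C, 24 nt apart, were higher in upf1 after rescaling, at -0.54 (SE 0.15) and -0.61 (SE 0.10), against 0.29 and 0.22 as deposited, neither past the threshold. The call of YNR066C was lost without WT_CHX replicate 1, without upf1_DMSO replicate 1 or without upf1_DMSO replicate 2. Over the genome 16 pairs met the sequence rule (gap of at most 1500 nt), and 31 of their members were tested. After rescaling 14 of the 31 were higher in upf1 and 3 after CHX, with a median of -0.24, beside 28.0% and 28.2% of all Y-named genes. As deposited, 10 were higher in upf1 and 15 after CHX. Both members were higher in upf1 in 5 of the 16 pairs after rescaling and in 4 as deposited. The rule was written after values of some of these pairs had been seen.

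In other pairs the frames parted. DOC1, a subunit of the anaphase-promoting complex downstream of KAP114, had 0.661 and 0.665 in upf1 and 0.207 and 0.235 after CHX, a difference of -1.56 (SE 0.11). KAP114, an importin, had 0.331 and 0.308 in upf1 and 0.297 and 0.344 after CHX, a difference of 0.00. STN1, a telomere capping protein, differed by -1.43 and RRP8 downstream of it by 0.08. SPT23 and MAK11 were both higher after CHX, by 0.78 and 0.38. An in-frame neighbour thus did not go with a gain in upf1 in every pair.

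**Figure D3:**
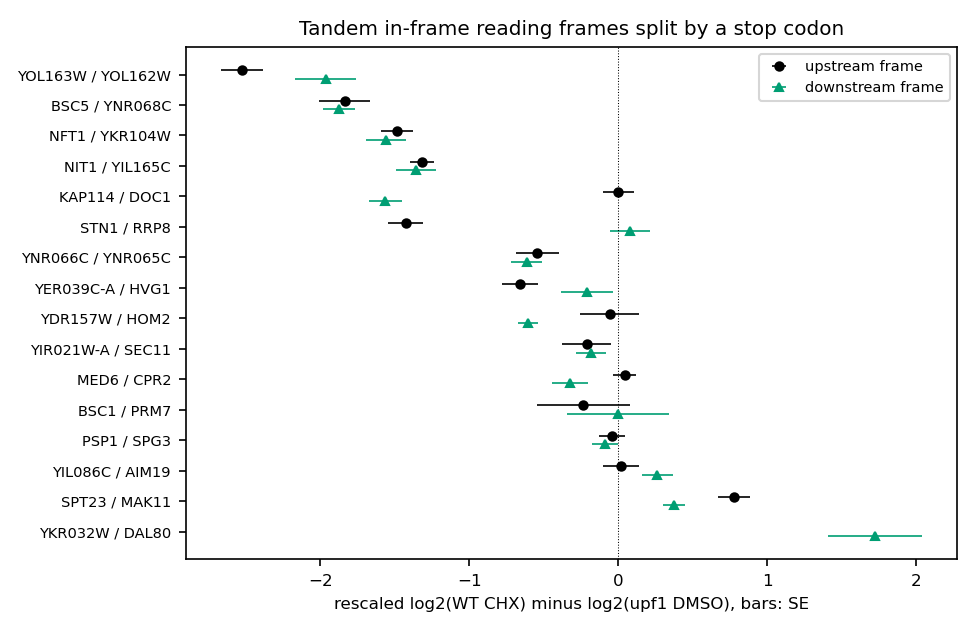
Rescaled log2 difference (horizontal, bars are SE) of the upstream frame (circles) and the downstream frame (triangles) of the 16 in-frame pairs, of which 1 frame was not tested. The pairs YOL163W/YOL162W, BSC5/YNR068C, NFT1/YKR104W, NIT1/YIL165C and YNR066C/YNR065C lie below 0 on both frames, and SPT23/MAK11 above 0.

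Among 18 mRNAs reported as NMD targets, 12 (66.7%) were higher in upf1 after rescaling and 2 (11.1%) after CHX, with a median of -0.68. All Y-named genes had 28.0% and 28.2%. STN1 had 0.988 and 0.932 in upf1, 0.329 and 0.379 after CHX, and 0.150 and 0.135 in WT with DMSO. TEN1, its partner in telomere capping, had 0.517 and 0.530 in upf1 and 0.202 and 0.204 after CHX, a difference of -1.34 (SE 0.08). In both genes the upf1 libraries were highest and CHX lay between them and the untreated wild type. The telomerase genes EST1, EST3 and EST2 differed by -1.21, -1.18 and -0.43.

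MAK31, a subunit of an N-terminal acetyltransferase, differed by -0.86, and CPA1, whose leader holds the arginine attenuator peptide, by -0.84. CTF13 (kinetochore), ALR1 (magnesium uptake) and FZF1 (sulfite resistance) differed by -0.74, -0.68 and -0.68. SPT10, a regulator of histone genes, and SSY5, a protease of amino acid sensing, were higher after CHX by 0.28 and 0.48. On the deposited scale 3 of the 18 were higher in upf1, DAL7 at -0.98, STN1 at -0.59 and TEN1 at -0.51, and 7 were higher after CHX. The deposited calls of STN1 and TEN1 were lost without WT_CHX replicate 1 (limma adjusted p = 0.137 and 0.113) and without upf1_DMSO replicate 2 (0.0753 and 0.124), and that of TEN1 also without WT_CHX replicate 2 (0.0548). The targets were collected from knowledge of NMD in yeast, which includes upf1 mutants, so their direction is not independent evidence.

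Of 23 factors of decay, 6 were higher after CHX and 6 in upf1 after rescaling, close to the 28.2% and 28.0% of all Y-named genes, and 19 and 0 as deposited. UPF3, which binds Upf2 in the NMD pathway, had 0.293 and 0.257 after CHX and 0.149 and 0.147 in upf1, a difference of 0.87 (SE 0.10). The decapping gene DCP2 differed by 0.63 and the decapping activators EDC1 and EDC2 by 0.97 and 0.74. The deadenylase gene PAN2 and the exonuclease gene XRN1 were higher in upf1, at -0.82 and -0.60. NMD2, the gene of Upf2, at -0.24 did not pass the threshold.

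The phosphate regulon went toward CHX almost as a whole. Of 16 genes, 15 were higher after CHX and 1 in upf1 after rescaling, with a median of 1.15, and as deposited 15 and 0 were, with a median of 2.00. Beside PHO89 and SPL2, the secreted acid phosphatase gene PHO5 had 3.17 and 3.60 after CHX, 2.26 and 2.62 in WT with DMSO, and 1.16 and 1.17 in upf1, a difference of 1.53 (SE 0.10). The high-affinity transporter gene PHO84 had 35.4 and 33.4 after CHX, 22.9 and 24.6 in WT with DMSO, and 13.2 and 13.3 in upf1, a difference of 1.38 (SE 0.07). In both genes the 3 groups stood in the same order without overlap on the rescaled scale. As deposited CHX was again the highest group, but PHO84 had 9.72 and 11.3 in upf1 and 10.9 and 12.2 in WT with DMSO, which overlap.

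PHM6 differed by 1.86, PHM8, a nucleotidase, by 1.77, PHO12 by 1.73 and PHO11 by 1.41, the last of these pairs being near-identical copies. VTC2, a subunit of the polyphosphate synthase complex, was the gene higher in upf1, at -0.39, and lost that call without WT_CHX replicate 1 or without upf1_DMSO replicate 2, while VTC3 was at 0.47. The median change against WT with DMSO over the 16 genes was 0.45 with CHX and -0.82 in upf1 after rescaling, and 2.00 and -0.12 as deposited.

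The transcription factor Pho4 binds DNA at CACGTG, a palindrome that reads alike on both strands, and this word was sought in the 500 nt before each start codon. It was found in 14 of the 16 genes, beside 365 of 5884 coding genes (6.2%). PHO8 and PHM8 had none, and CTF19 and VTC3 share sites between them. The list was collected from known phosphate genes, so its share with the motif is not independent evidence. One site each of PHO89, SPL2, PHO5 and PHO84, whose densities are given above, is shown with CACGTG in capitals, from R64 on the coding strand. That of PHO89 lies 317 nt before the start codon and that of SPL2 141 nt before it, as 1 of 4 in that promoter.
PHO89 (chrII:798830-798855, minus strand): gacaatgcagCACGTGggagacaaat
SPL2 (chrVIII:375232-375257, minus strand): atgatgtacgCACGTGggcgaaagtt
PHO5 (chrII:431189-431214, minus strand): ttggcactcaCACGTGggactagcac
PHO84 (chrXIII:26199-26224, minus strand): ttatttccagCACGTGgggcggaaat
A match is a description of the sequence and not evidence that the factor was bound.

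Histone genes and genes of daughter cells also went toward CHX. Of 10 histone genes, 8 were higher after CHX and 0 in upf1 after rescaling, beside 28.2% and 28.0% of all Y-named genes. Their median was 0.91, led by HHT1 at 1.45 and HHF1 at 1.26. As deposited the counts were 10 and 0, with a median of 1.755. HTA1, a gene of histone H2A, had 26.6 and 23.4 after CHX, 16.9 and 18.3 in WT with DMSO, and 10.8 and 10.7 in upf1. As deposited, its upf1 libraries overlapped those of WT with DMSO. The median change of the list in upf1 against WT with DMSO was -0.62 after rescaling and 0.09 as deposited. The genes HHO1 and HTZ1, whose products are the linker histone and the H2A.Z variant, stood at -0.15 and -0.12 and did not pass the threshold. Copies such as HHT1 and HHT2 share sequence, so their separate values are uncertain.

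Of 15 M/G1 genes, expressed in daughter cells after division, 12 were higher after CHX and 0 in upf1, with a median of 0.68. ASH1, which represses mating-type switching in daughters, had 1.26 and 1.34 after CHX and 0.608 and 0.513 in upf1, a difference of 1.21 (SE 0.09). SIC1, the inhibitor of S-phase cyclin kinase, differed by 1.04 and SCW11, a cell wall glucanase, by 1.08. The G1/S genes of DNA replication and cyclins did otherwise after rescaling, with 3 of 32 (9.38%) higher after CHX and 14 (43.8%) in upf1. All Y-named genes had 28.2% and 28.0%. As deposited 25 of the G1/S genes were higher after CHX and 0 in upf1. The G1 cyclin genes PCL1 and PCL2 were among the 3 higher after CHX on the rescaled scale, at 1.55 and 1.06, whereas POL2, a DNA polymerase, was at -0.68.

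The chaperone genes controlled by the heat shock factor Hsf1 leaned toward upf1. Of 26 genes, 22 were higher in upf1 and 2 after CHX after rescaling, with a median of -1.01. SSA1, an Hsp70 chaperone, had 3.23 and 3.33 after CHX, 9.45 and 8.93 in WT with DMSO, and 8.94 and 8.58 in upf1, a difference of -1.41 (SE 0.06). HSP104, a disaggregase, had 0.944 and 0.988 after CHX and 2.15 and 1.80 in upf1, a difference of -1.02. After rescaling the upf1 libraries lay near the untreated wild type in both genes and the CHX libraries lay below. As deposited it was upf1 that lay apart in SSA1, with 6.59 and 7.33 against 4.46 and 4.93 after CHX and 4.48 and 4.44 in WT with DMSO.

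AHA1, a cofactor of Hsp90, differed by -1.37 and KAR2, the Hsp70 of the endoplasmic reticulum, by -1.15. HSP26 and HSP12, small heat shock proteins, were the 2 higher after CHX, at 1.18 and 1.89, and both are also in stress gene programmes outside Hsf1. The median change of the list against WT with DMSO was -1.05 with CHX and -0.07 in upf1 after rescaling, and 0.51 and 0.64 as deposited. As deposited, 4 of the 26 were higher in upf1 and 7 after CHX, with a median of -0.17. SSA1 and SSA2 and HSP82 and HSC82 share sequence, so their separate values are uncertain.

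Environmental stress genes, many of them driven by the activators Msn2 and Msn4, did not follow the chaperones: 18 of 41 were higher after CHX and 2 in upf1, with a median of 0.29, and 40 and 0 as deposited. DDR2 had 0.579 and 0.475 after CHX, 0.279 and 0.217 in WT with DMSO, and 0.0792 and 0.0380 in upf1, a difference of 3.13 (SE 0.37). The trehalose synthesis genes TSL1, TPS2 and TPS1 differed by 1.33, 1.22 and 0.80.

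Genes of protein synthesis and turnover leaned toward upf1 after rescaling, where all Y-named genes had 28.0% higher in upf1 and 28.2% after CHX. Of 33 proteasome genes 29 were higher in upf1 and 0 after CHX, with a median of -0.46, and RPN4, the transcription factor of the set, was at 0.21 and not past the threshold. Of 35 translation factor genes 23 (65.7%) were higher in upf1 and 1 (2.86%) after CHX, with a median of -0.32. HCR1, a subunit of initiation factor eIF3, had 3.35 and 3.47 in upf1 and 1.78 and 1.78 after CHX, a difference of -0.93 (SE 0.06). TEF1 and TEF2, copies of the gene of elongation factor eEF1A, were at -0.64 and -0.69.

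Of 138 cytosolic ribosomal protein genes 62 were higher in upf1 and 9 after CHX, with a median of -0.20, and of 21 glycolysis genes 14 and 4, with a median of -0.45. The ribosomal protein genes were high from the start, at a median deposited density of 11.4 in WT with DMSO. Their shares were 44.9% and 6.52%, beside 48.1% and 12.4% in the highest group by starting level, whose median was -0.22. The part of level in their lean was not tested. For ribosomal protein genes the median change against WT with DMSO was -0.74 with CHX and -0.51 in upf1 after rescaling, and 0.82 and 0.20 as deposited. Ribosome biogenesis genes leaned slightly the other way, with 27 of 74 (36.5%) higher after CHX and 9 (12.2%) in upf1. Their median was 0.13, and all Y-named genes had 28.2% and 28.0%. As deposited, 0 genes of these 5 lists were higher in upf1, and the median differences were between 0.39 and 0.98, so the lean toward upf1 is one relative to the median mRNA.

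**Figure D4:**
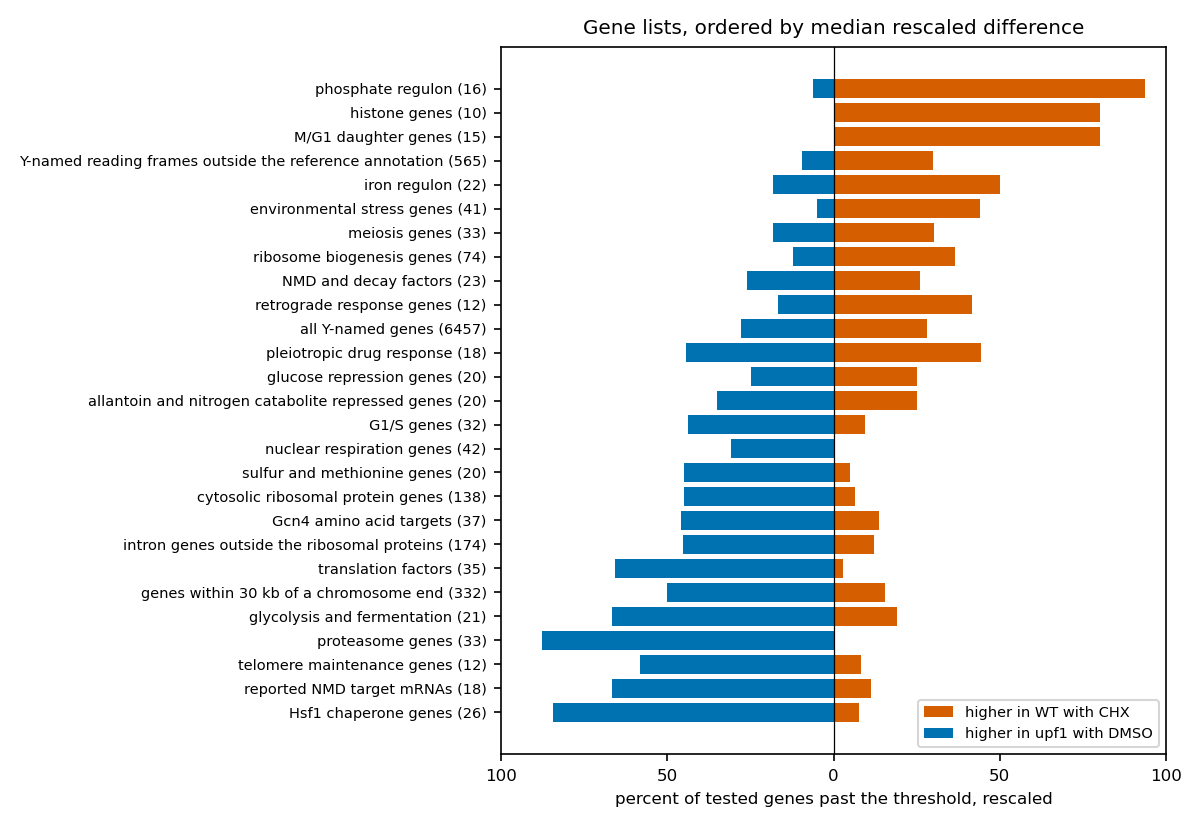
Percent of the tested genes of each list (number in brackets) that were higher in WT with CHX (right of 0) or in upf1 with DMSO (left of 0) on the rescaled scale, with the lists in the order of their median difference. The phosphate regulon stands at the top with a median of 1.15 and the Hsf1 chaperone genes at the bottom with -1.01, and all Y-named genes show 28.2% and 28.0%.

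Some nutrient lists held genes at both ends. Of 20 allantoin and nitrogen genes 5 were higher after CHX and 7 in upf1 after rescaling, near the 28.2% and 28.0% of all Y-named genes, and 13 and 3 as deposited. DAL2, allantoicase, had 0.508 and 0.629 in upf1 and 0.175 and 0.165 after CHX, a difference of -1.70, and DAL5, the allantoate transporter, differed by -1.37. PUT1, proline oxidase, had 0.221 and 0.207 after CHX and 0.0626 and 0.0537 in upf1, a difference of 1.79. The retrograde list likewise held CIT2 at 4.66 and RTG1, a transcription factor that acts upstream of CIT2, at -1.32, with 5 of 12 higher after CHX and 2 in upf1 (10 and 1 as deposited). RTG3, the partner of Rtg1, was at 0.98.

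After rescaling, 5 of 37 amino acid genes under Gcn4 (13.5%) were higher after CHX and 17 (45.9%) in upf1, against 25 and 0 as deposited. All Y-named genes had shares of 28.2% and 28.0% after rescaling. Of 20 sulfur genes the counts were 1 and 9 (11 and 1 as deposited) and of 22 iron genes 11 and 4 (19 and 0). Of 20 glucose repression genes 5 and 5 were called, near the shares of all Y-named genes, and 15 and 0 as deposited. TIS11, an mRNA-binding protein of the iron response, was at 1.66, and ADR1, an activator of glucose-repressed genes, at -1.06. Of 33 meiosis genes, which are silent or low in dividing cells, 10 (30.3%) were higher after CHX and 6 (18.2%) in upf1. The share toward CHX is near that of all Y-named genes. As deposited the counts were 21 and 2. PCH2 was at 2.06 and SPO16 at -1.61 after rescaling.

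Genes near chromosome ends were more often higher without Upf1. Of 332 genes within 30 kb of an end, 166 were higher in upf1 and 51 after CHX after rescaling, with a median of -0.44, and 42 and 154 as deposited. COS12, of a subtelomeric family of membrane proteins, had 0.658 and 0.555 in upf1, 0.0517 and 0.0694 after CHX, and 0.0455 and 0.0557 in WT with DMSO, a difference of -3.22 (SE 0.17). AAD15, an aryl-alcohol dehydrogenase relative, had 94 and 88 reads in upf1, 5 and 7 after CHX and 0 in both WT libraries with DMSO. Families near the ends share sequence, so values of single members are uncertain.

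Genes with introns outside the ribosomal proteins also leaned toward upf1 after rescaling, 79 of 174 against 21, with a median of -0.26, beside 28.0% and 28.2% of all Y-named genes. As deposited 4 were higher in upf1 and 124 after CHX, with a median of 0.58. Reading frames with Y names that the reference annotation does not hold leaned the other way, with 169 of 565 higher after CHX and 54 in upf1 and a median of 0.42 (404 and 8 as deposited). Many of these frames overlap other genes or are short.

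The non-coding classes parted from one another. Of 916 CUTs 321 were higher after CHX and 48 in upf1 after rescaling, with a median of 0.47, and of 1485 NUTs 490 and 198, with a median of 0.34. Of 820 SUTs 93 were higher after CHX and 288 in upf1, with a median of -0.27. Of 1611 XUTs 252 were higher after CHX and 380 in upf1, with a median of -0.05 that ranged from -0.15 to 0.03 over the 4 pairs of libraries. Over all features the shares were 26.2% and 24.1%. The counts toward CHX rested in part on single libraries: without WT_CHX replicate 1 they were 177 CUTs, 249 NUTs, 45 SUTs and 132 XUTs, and without upf1_DMSO replicate 2 they were 213, 304, 60 and 157. The CUTs toward upf1 were 28 without WT_CHX replicate 2 or without upf1_DMSO replicate 1.

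On the deposited scale the medians were 1.18 for CUTs, 1.03 for NUTs, 0.69 for XUTs and 0.50 for SUTs, all toward CHX, beside 0.83 for Y-named genes. Relative to WT with DMSO after rescaling, the median XUT stood 0.83 higher with CHX and 0.91 higher in upf1, and the median SUT 0.72 and 0.93. The median CUT stood 0.51 higher with CHX and -0.10 in upf1, and the median NUT 0.79 and 0.32. These changes share the WT libraries with DMSO. Classes overlap in the genome and no coordinates of them were used here.

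**Figure D5:**
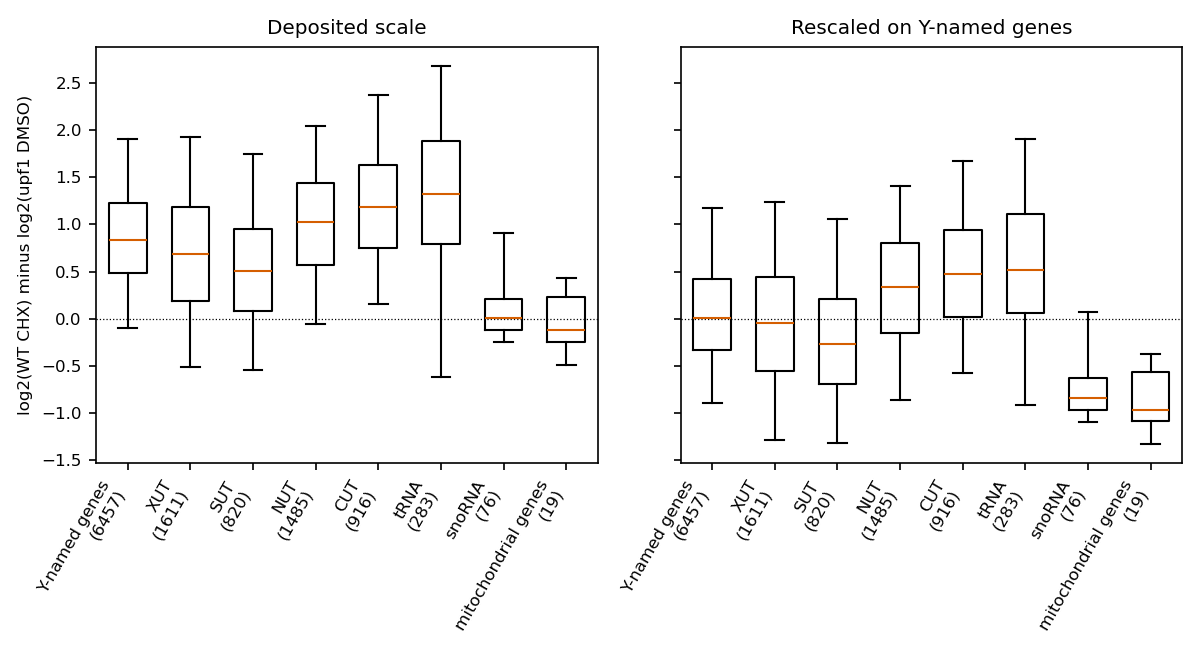
Log2 difference between the compared groups (vertical) by feature class on the deposited scale (left) and the rescaled scale (right), with the median as a line, quartiles as boxes and percentiles 5 and 95 as whiskers. After rescaling the medians run from 0.52 for tRNAs and 0.47 for CUTs to -0.27 for SUTs, -0.85 for snoRNAs and -0.97 for mitochondrial genes.

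Within each class single transcripts went far in either direction. XUT1272 had 134 and 122 reads after CHX, 21 and 6 in upf1 and 9 and 7 in WT with DMSO, a rescaled log2 difference of 3.12 (SE 0.37, limma adjusted p = 0.000432). XUT0717 and XUT1223 differed by 2.71 and 2.70. XUT0788 had 107 and 59 reads in upf1, 2 and 4 after CHX and 0 and 1 in WT with DMSO, a difference of -3.69 (SE 0.31, limma adjusted p = 0.000123). XUT0788 was thus seen almost only in the upf1 libraries of these 3 groups.

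XUT1657 was better covered, with 410 and 302 reads in upf1 against 28 and 34 after CHX and 17 and 26 in WT with DMSO, a difference of -2.99 (SE 0.14). Its rescaled densities were 0.234 and 0.231 in upf1 and 0.0237 and 0.0252 after CHX. SUT738 was highest among SUTs, at 2.37, with densities of 0.0895 and 0.0828 after CHX and 0.00962 and 0.0152 in upf1. SUT485 was lowest at -2.29, with 0.295 and 0.284 in upf1, 0.0542 and 0.0555 after CHX and 0.0766 and 0.0714 in WT with DMSO. As deposited, SUT485 had 0.0749 and 0.0822 after CHX, above the 0.0364 and 0.0355 of WT with DMSO, so its place against the untreated wild type turned with the scale.

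CUT222 had 0.292 and 0.263 after CHX and 0.0328 and 0.0399 in upf1, a difference of 2.76, and CUT300 and CUT884 differed by 2.67 and 2.45. In the other direction CUT046 differed by -1.56, with 0.395 and 0.331 after CHX and 1.07 and 1.08 in upf1. CUT404 was at -1.28 and CUT281 at -1.17, and CUT281 lost its call without WT_CHX replicate 2 (limma adjusted p = 0.0675) or without upf1_DMSO replicate 1 (0.0732). NUT1463 had 0.20 and 0.202 after CHX and 0.0219 and 0.0251 in upf1, and NUT0672 had 0.0232 and 0.0290 after CHX and 0.139 and 0.135 in upf1, a difference of -2.18.

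The counts of small stable RNAs depended on the scale, but tRNA genes leaned toward CHX on both scales. Of 283 tRNA genes 89 were higher after CHX and 7 in upf1 after rescaling, with a median of 0.52. As deposited 186 and 3 were, with a median of 1.32. Of 76 snoRNAs 2 and 63 were, with a median of -0.85, but as deposited 15 and 3, with a median of 0.00. The 19 genes of the mitochondrial genome had a rescaled median of -0.97 with 16 higher in upf1 and 0 after CHX, and as deposited 3 and 1, with a median of -0.12. Copies of a tRNA gene are near identical, so their separate values are uncertain.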

How the data were processed

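The authors deposited 1 table of normalised read densities for 11993 features, a signal per nucleotide of feature and library, with group means beside the replicate columns. The submitters' processing notes name genome build R64 and the tools HISAT2 2.2.0, Trim Galore, DESeq2 and featureCounts 2.0.0. Neither the annotation nor the normalisation step is given in the sources used here. Groups and replicate numbers come from the sample titles, and the series design calls the replicates biological.

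Reads per feature were recovered from the densities, since all 11986 features with a value above 0 came out as whole reads to within 0.001. Tests used log2(density + 0.005488), the pseudocount being percentile 5 of all densities above 0, so folds of low features are understated. Features with a mean below it (293) were left out and 11700 were tested with limma 3.58.1 (R 4.3.3), on all 8 libraries with 1 mean per group, a mean-variance trend and Benjamini-Hochberg adjustment. The deposited values were tested as they are and after dividing each library by its median of ratios over 6212 Y-named genes above 0 in every library. The fit recovered known changes on simulated data, in which only well-covered features were changed and every library had the same spread. Low-count features and the wider spread of the upf1 group were thus not covered.

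Genes were named by rule: the 12 farthest each way after rescaling among called, non-overlapping Y-named genes at or above the median level, 3 each way per non-coding class with at least 20 reads on average, and members at the ends of gene lists. Other members and pairs were chosen after their values were seen. The members and lists were chosen with earlier results of these data known. Coordinates and sequences are from the R64 reference genome. Alternatives were other pseudocounts and filters, only the 4 compared libraries, a replicate block, limma voom on recovered reads and leaving out each library. Deviations of same-numbered replicates correlated little (r from -0.05 to 0.12 over 6457 genes), so the numbers were not treated as pairs. This cannot show whether the samples were prepared in pairs.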

Additional observations from a re-analysis of the deposited data

How the results depend on the processing

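No difference of a named gene that passed the threshold turned its sign under an alternative. Among those that did not pass, CUT404 as deposited went from -0.48 to 0.04 without WT_CHX replicate 1. The rescaled balance turned without that library, from 3071 against 2823 to 1973 against 2175 features and from 1820 against 1808 to 1316 against 1363 Y-named genes. After rescaling, the count of NUTs higher after CHX fell from 490 to 286 when features under 4 times the pseudocount were left out, and 0 other counts moved past 1.5 times outside the runs that left out a library. Leaving out each library in turn gave, as deposited, 6841 to 8658 features higher after CHX and 150 to 290 higher in upf1, and after rescaling 1973 to 3152 and 2155 to 2826. The rescaled ranges toward CHX and toward upf1 were 1316 to 1809 and 1363 to 1775 for Y-named genes, 132 to 282 and 273 to 415 for XUTs, 45 to 100 and 210 to 304 for SUTs, 177 to 348 and 28 to 49 for CUTs, and 249 to 521 and 136 to 206 for NUTs. Leaving out WT_CHX replicate 1 gave the lowest count toward CHX in each of these classes and over all features after rescaling. Without upf1_DMSO replicate 2 the features higher in upf1 as deposited were 150 in place of 251, and toward CHX after rescaling 213 CUTs, 304 NUTs, 60 SUTs and 157 XUTs were called. Without WT_CHX replicate 2 or without upf1_DMSO replicate 1 the CUTs toward upf1 were 28 in place of 48. Where a group was left with 1 library, that library was assumed to vary like the other groups.

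With the replicate number as a block in the model, 3109 features were higher after CHX and 2874 in upf1 after rescaling, and 8754 and 320 as deposited. The main fit had no such block, since deviations of same-numbered replicates correlated at only -0.05 between WT with CHX and upf1 with DMSO. Of 430 values of named genes on both scales, calls were lost for 27 without WT_CHX replicate 1, 18 without upf1_DMSO replicate 2, 16 without WT_CHX replicate 2 and 10 without upf1_DMSO replicate 1. The cause was not tested.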

Other observations

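The named genes were also read in the upf1 libraries with CHX, which carry both changes, on the rescaled scale. In all 12 genes farthest toward the translation block both of these libraries lay above both upf1 libraries with DMSO, and in 7 they lay below both WT libraries with CHX. CIT2 stood at 20.3 and 22.1 in upf1 with CHX, near its 18.8 and 21.0 in WT with CHX, whereas PHO89 stood at 0.384 and 0.478 against 1.84 and 1.90. In all 12 genes farthest toward upf1, the libraries of upf1 with CHX lay between, below both upf1 libraries with DMSO and above both WT libraries with CHX. OTU1 stood there at 1.03 and 0.997, DAL7 at 0.830 and 0.927 and SLO1 at 1.03 and 1.01. The rescaling divided upf1 with CHX by 1.68 and 2.05 and upf1 with DMSO by 0.738 and 0.854. As deposited, OTU1, DAL7 and SLO1 were thus higher in upf1 with CHX than in upf1 with DMSO. Their order between these 2 groups therefore depends on the scale.

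Of 18 such genes under Pdr1 and Pdr3 or related to them, 8 were higher after CHX and 8 in upf1 after rescaling (14 and 0 as deposited), with the polyamine exporter genes TPO4 and TPO1 at 2.01 and 1.16 and the transporter genes PDR10 and SNQ2 at -0.79 and -0.67. Of 42 nuclear genes of respiration 13 were higher in upf1 and 0 after CHX after rescaling, the 13 being near the 28.0% of all Y-named genes, and as deposited 0 and 37, with KGD1, of the citric acid cycle, at -0.78 after rescaling. Of the 4 features of the resident 2-micron plasmid 3 were higher in upf1 and 0 after CHX after rescaling, with a median of -0.74, beside 24.1% and 26.2% of all features. As deposited 1 was higher in upf1 and 2 after CHX, with a median of 0.11, so their direction depends on the scale.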
